A study of Homo sapiens with 12 samples.

Results

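KRT7, KRT8, KRT18, KRT19, MUC1, EPCAM, CDH1, CDH2, VIM and CD24 were followed across 4 siRNA groups of RCC4 cells, an established human line from a clear cell renal carcinoma. The genes were given by name, and each was read by the probe sets that the platform annotation pairs with its symbol alone. This gave 20 probe sets for 10 genes out of 11963 genes tested, and a gene's value was the mean of its probe sets. All 12 cultures received siRNA in an amount of 40 pmol and were collected after 72 h, with 3 biological replicates per group by the labels. The siNT group received a non-targeting sequence, the siMESH1 group a single siRNA against MESH1 (gene HDDC3, a cytosolic NADPH phosphatase), the siATF4 group a pool against ATF4 (the transcription factor of the integrated stress response), and the siMESH1+siATF4 group both. How much of each siRNA that last group received is not given in the sources used here, so the dose of each may differ from that in the single groups. Only 1 MESH1 sequence was used, so an effect of that sequence on other transcripts cannot be told apart from loss of MESH1 here. For the ATF4 pool, the paper regarded genes changed by siATF4 alone as off-target and left them out of its ATF4-mediated genes. It gave the low level of ATF4 in unstressed RCC4 cells as the reason. Whether changes in siATF4 come from loss of ATF4 was not tested here.

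Every value is a log2 signal minus the mean of the siNT arrays for that probe set, so the table holds differences and no absolute levels. Neither the level of a marker nor the renal epithelial identity of the cells could therefore be checked, and genes are compared with one another only by how far they moved. ATF4 fell by 2.31 on the log2 scale in siATF4 (SE 0.0698, adjusted p = 8.23e-10) and fell by 2.32 where both siRNAs were given (adjusted p = 1.64e-10). No value of HDDC3 was used here (0 probe sets carried its name), so silencing of MESH1 was not checked. A gene was called when its adjusted p, taken over all genes, was under 0.05 and its log2 difference reached 0.5 (the fold minimum, 1.41-fold).

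Simple epithelia build their cytoskeleton from keratin filaments, in which a type II keratin (KRT7 or KRT8) pairs with a type I keratin (KRT18 or KRT19). MUC1 is a heavily glycosylated mucin of the apical membrane, EPCAM a homophilic adhesion protein of epithelia, and CD24 a small lipid-anchored glycoprotein of progenitor and tumour cells. Cells that pass from an epithelial to a mesenchymal state (EMT) classically exchange E-cadherin (CDH1) for N-cadherin (CDH2) and gain vimentin (VIM), under repressors of the SNAI and ZEB families. Renal carcinoma blurs this division, since proximal tubule cells normally carry CDH2 and clear cell tumours often hold keratins 8 and 18 together with VIM.

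The promoter of MUC1, the gene among the 10 with the largest fall, is shown because it holds the letters of the E-box that SNAI and ZEB repressors are known to bind, and the promoter of VIM, a gene that was called in none of the comparisons, is shown beside it. Each line gives the 250 bases before the first listed start in GRCh38.p14, read 5′ to 3′ on the gene's own strand, and capitals mark the E-box motif CACCTG, the motif of the GC box, which is GGGCGG, and the TATA box motif TATAAA, all searched on both strands.
MUC1 (chr1:155192916-155193165, minus strand): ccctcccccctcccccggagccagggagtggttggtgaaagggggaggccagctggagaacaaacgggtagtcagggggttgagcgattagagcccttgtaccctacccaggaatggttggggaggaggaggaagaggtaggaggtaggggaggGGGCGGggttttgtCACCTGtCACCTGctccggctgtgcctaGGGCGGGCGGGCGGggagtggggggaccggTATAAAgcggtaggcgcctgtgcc
VIM (chr10:17227991-17228240, plus strand): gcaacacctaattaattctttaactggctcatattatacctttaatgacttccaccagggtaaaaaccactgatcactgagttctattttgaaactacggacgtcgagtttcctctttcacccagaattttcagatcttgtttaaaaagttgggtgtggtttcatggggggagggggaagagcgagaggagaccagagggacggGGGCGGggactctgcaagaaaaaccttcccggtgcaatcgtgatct
The MUC1 stretch held 2 E-boxes, beginning at positions -82 and -75, where -1 is the last base before the start. It also held GC boxes at -96, -54, -50 and -46, the last 3 of them overlapping, and a TATA box at -24. The VIM stretch held 1 GC box at -46 and neither of the other motifs. Of the other entries, CD24, which was not called either, held an E-box on the reverse strand at -249 of its start listed as number 3. It also held GC boxes at -99 of start number 1 and at -71 of number 3. KRT8, which was called, held none of the 3 motifs. CDH2, which was not called, held no E-box, a GC box on the reverse strand at -177 of its start number 1 and a TATA box at -32 of number 2. Among 35116 promoter stretches of the same length in that table, 17.5% held CACCTG, 42.6% held GGGCGG and 10.7% held TATAAA. These are matches of letters, and binding was not measured. MUC1 was shown for holding the E-box, so its contrast with VIM was set by that choice and is no test. Entries were found for 5 of the 10 genes (KRT8, MUC1, CDH2, VIM and CD24).

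MUC1 (-0.93) and KRT18 (-0.54) fell when MESH1 was silenced alone. KRT19 (0.75) and EPCAM (0.60) rose when ATF4 was silenced alone, and KRT19 (1.13) and KRT18 (0.63) were above siNT when both were silenced. A change with siATF4 alone, as in KRT19 and EPCAM, is of the kind that the paper set aside as off-target. Adding the ATF4 pool to MESH1-silenced cells raised KRT19, KRT18, MUC1, EPCAM and KRT8. KRT7, CDH1, CDH2, VIM and CD24 were not called in any of the 7 comparisons, although CDH2 lay 0.45 above siNT in siMESH1 with a small error.

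Counted over the 10 genes, siMESH1 vs siNT had 0 called higher against 2.82% of all genes, and 2 called lower against 5.37%. In siATF4 vs siNT, 2 were called higher (2.49% of all genes) and 0 lower (4.03%). In siMESH1+siATF4 vs siNT, 2 were called higher (4.4%) and 0 lower (5.25%). The comparison of siMESH1+siATF4 with siMESH1 stood furthest from its background, with 5 of 10 called higher where 3.42% of all genes were, and 0 lower where 2.68% were. The 10 genes were chosen with earlier results of these data known, so a distance from the background is a description and no test. In siMESH1+siATF4 vs siATF4, 0 were called in either direction by limma (0.351% of all genes higher and 1.28% lower), 5 of 10 had an unadjusted p under 0.05 where 24.3% of all genes did, and the methods' t-test called 0. The direct comparison of siMESH1 with siATF4 had 0 called higher (3.91%) and 4 lower (4.75%), namely MUC1, KRT18, KRT19 and EPCAM. The median over the 10 genes was -0.14 in siMESH1 vs siNT and 0.36 in siMESH1+siATF4 vs siMESH1, where the medians of all genes were 0.03 and -0.01.

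**Figure D1:**
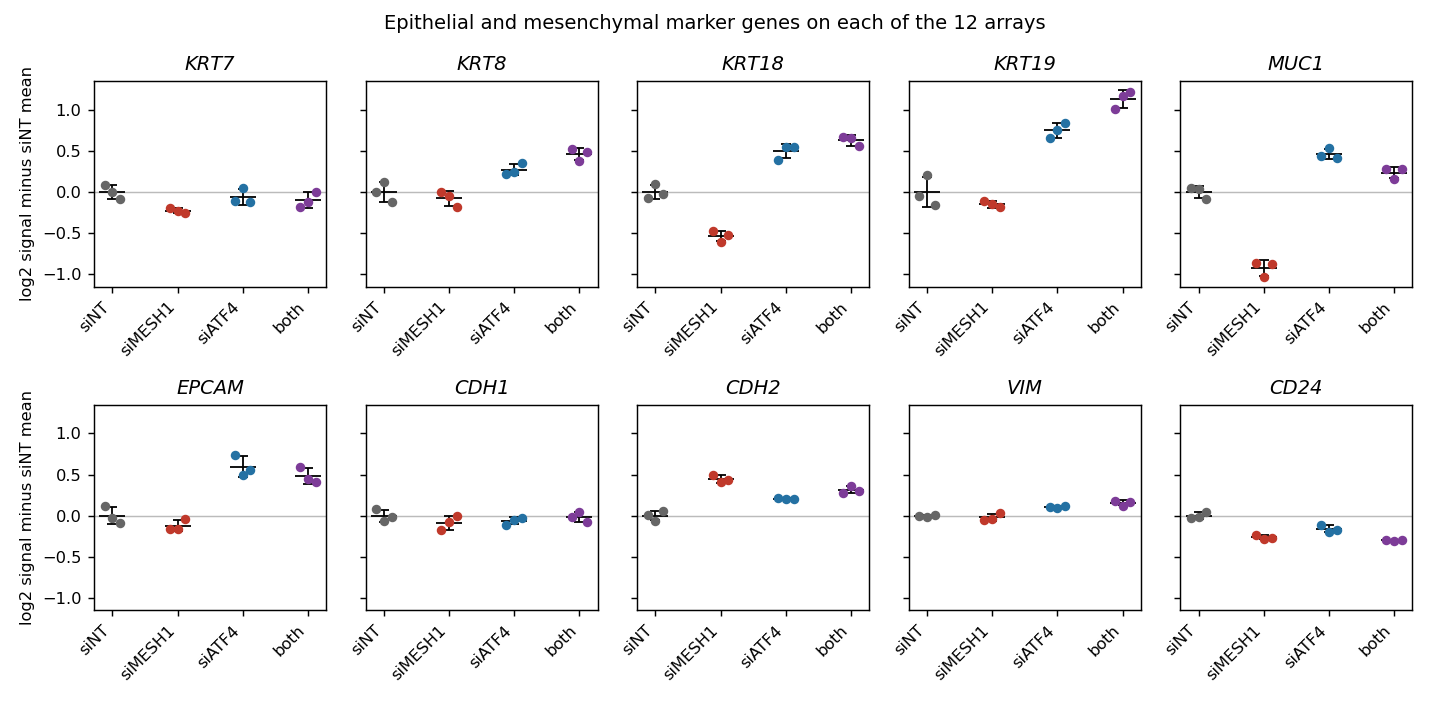
Log2 signal of each gene minus the siNT mean (y axis) on each of the 12 arrays, grouped on the x axis by siRNA, with both standing for siMESH1+siATF4; points are arrays, and bars show the mean and SD of 3. MUC1 on the siMESH1 arrays lies between -1.04 and -0.87 and KRT19 on the siMESH1+siATF4 arrays between 1.01 and 1.21, while CDH1 stays between -0.18 and 0.08 on every array.

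Those counts depend on what is taken as unchanged, because housekeeping genes themselves were lower in the silenced groups. The mean of 11 measured housekeeping genes lay between -0.36 and -0.32 on the siMESH1 arrays, between -0.17 and -0.13 on the siATF4 arrays, between -0.23 and -0.22 on the siMESH1+siATF4 arrays, and within 0.02 of 0 on the siNT arrays. TFRC (-1.17), HPRT1 (-0.66) and PGK1 (-0.53) of that list were called lower in siMESH1. The median of the 11 genes in siMESH1 vs siNT was nearer to siNT, at -0.21 (range -1.17 to 0.02). The mean used for centring therefore leans on the genes that fell most. Centring each array on this mean moved the median of all genes in siMESH1 vs siNT from 0.03 to 0.36, and the split of called genes from 337 higher and 643 lower to 2526 and 291. The medians became 0.17 in siATF4 vs siNT, 0.23 in siMESH1+siATF4 vs siNT, -0.12 in siMESH1+siATF4 vs siMESH1, 0.19 in siMESH1 vs siATF4 and -0.28 in the interaction. The splits moved from 298 and 482 to 681 and 324 in siATF4 vs siNT, from 526 and 628 to 1505 and 372 in siMESH1+siATF4 vs siNT, and from 409 and 321 to 262 and 549 in siMESH1+siATF4 vs siMESH1. They moved from 42 and 153 to 91 and 113 in siMESH1+siATF4 vs siATF4, from 468 and 568 to 1026 and 302 in siMESH1 vs siATF4, and from 414 and 102 to 196 and 1261 in the interaction. Such centring adds the same amount to every gene of an array, so a gene's distance from the median of all genes does not move with it. Centring on each array's own median kept every call of the 10 genes.

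KRT18, the type I partner of KRT8 in simple epithelia, moved in opposite directions under the single siRNAs. Its siNT values were -0.07, 0.10 and -0.03 for replicates 1 to 3, and its siMESH1 values were -0.48, -0.61 and -0.52. The siATF4 values were 0.39, 0.54 and 0.55, and the siMESH1+siATF4 values were 0.67, 0.66 and 0.55. All siMESH1 arrays lay below and all other silenced arrays above every siNT array. KRT18 fell 1.45-fold in siMESH1 (-0.54 ± 0.06, SE, adjusted p = 3.01e-05), but the fold stayed under the minimum without siNT replicate 2 (-0.49) and under housekeeping centring (-0.21). In siATF4 it was 0.495 higher (adjusted p = 7.68e-05), just under the fold minimum, and past it without siNT replicate 2 (0.54), without siATF4 replicate 1 (0.55) and under housekeeping centring (0.64). It rose 2.24-fold in siMESH1+siATF4 against siMESH1 (1.16 ± 0.06, adjusted p = 7.69e-08) and was 0.63 above siNT in siMESH1+siATF4 (SE 0.06, adjusted p = 6.31e-06).

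KRT19, a type I keratin that lacks most of the tail domain, had the largest rises among the 10 genes. The siNT arrays, at -0.04, 0.20 and -0.16, spread the widest of the siNT values of the 10 genes (SD 0.183). The siMESH1 arrays (-0.11, -0.15 and -0.19) overlapped them, and the difference was -0.15 (95% interval -0.34 to 0.04, adjusted p = 0.22). The siATF4 arrays (0.66, 0.75 and 0.83) and the siMESH1+siATF4 arrays (1.01, 1.17 and 1.21) lay above all siNT arrays and did not overlap each other. The rise of KRT19 over siNT was 1.68-fold with siATF4 alone (0.75 ± 0.09, SE, adjusted p = 2.62e-05) and 2.19-fold with both siRNAs (1.13 ± 0.09, adjusted p = 3.93e-07). Against siMESH1 the rise in siMESH1+siATF4 was 2.43-fold (1.28 ± 0.09, adjusted p = 3.36e-07). The further step from siATF4 to siMESH1+siATF4 was 0.38 (adjusted p = 0.0116), under the fold minimum.

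KRT8, the type II partner, was called in 1 comparison. It was read by 1 probe set whose name ends in _x_at, as was KRT18, and such probe sets can also read near-identical sequences, of which KRT8 and KRT18 have many as processed pseudogenes, so both values are uncertain to that extent. The KRT8 values were -0.004, 0.13 and -0.12 in siNT, -0.003, -0.05 and -0.19 in siMESH1, 0.22, 0.24 and 0.35 in siATF4, and 0.52, 0.38 and 0.49 in siMESH1+siATF4. The siMESH1 arrays overlapped siNT (difference -0.08, 95% interval -0.24 to 0.08, adjusted p = 0.462), where KRT18 fell. KRT8 rose 1.46-fold in siMESH1+siATF4 against siMESH1 (0.54 ± 0.07, SE, adjusted p = 1.09e-04), a call lost without siMESH1 replicate 3 (0.49) and under housekeeping centring (0.43). Against siNT the value in siMESH1+siATF4 was 0.46 (adjusted p = 2.44e-04), under the fold minimum but past it without siNT replicate 2 (0.53), without siMESH1+siATF4 replicate 2 (0.50) and under housekeeping centring (0.68). KRT8 and KRT18 lie next to each other on chromosome 12, with 0 protein-coding genes between them in the RefSeq table, and were read by separate probe sets.

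KRT7, the other type II keratin, was not called in any comparison. Its siMESH1 values of -0.19, -0.24 and -0.26 lay below the siNT values of 0.09, -0.004 and -0.08, a difference of -0.23 (95% interval -0.37 to -0.08, adjusted p = 0.0176) that was under the fold minimum. The siATF4 arrays (-0.11, 0.05 and -0.12) and the siMESH1+siATF4 arrays (-0.19, -0.12 and 0.002) overlapped siNT, with differences of -0.06 (95% interval -0.21 to 0.08) and -0.10 (95% interval -0.25 to 0.04). Its siMESH1+siATF4 arrays lay above its siMESH1 arrays by 0.13 on average (95% interval -0.02 to 0.27, adjusted p = 0.19) and did not overlap them. The 2 probe sets stood at -0.33 and -0.13 in siMESH1 vs siNT, and at 0.21 and 0.04 in siMESH1+siATF4 vs siMESH1. Housekeeping centring turned the sign of the siMESH1 difference (0.10) and of that with both siRNAs (0.12).

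Under 30 other measured symbols of the family stood 28 keratins, which include the pairs of stratified epithelium, and the pseudogenes KRT19P2 and KRT8P12, and limma called 0 of the 30 in each of the 7 comparisons. At an unadjusted p under 0.05 between 0 and 3 of them passed per comparison, where 24.3% to 43.1% of all genes did, and the methods' t-test called 0 in the 6 comparisons it can make. In siMESH1 vs siNT the values of the 28 keratins ran from -0.23 to 0.21, and in siMESH1+siATF4 vs siMESH1 from -0.16 to 0.12, with a median of -0.03. KRT8P12, a pseudogene of KRT8, stood at 0.21 in the second of these (SE 0.0685), where KRT8 rose by 0.54. Housekeeping centring called 3 of the 30 higher in siMESH1 vs siNT and 3 lower in the interaction, and 0 in the other comparisons. Under that centring, too, none was called higher in siMESH1+siATF4 vs siMESH1, where KRT18 (1.05) and KRT19 (1.17) remained called. Without absolute signal it is unknown which of the other keratins lay above background, so a lack of calls may be a lack of signal.

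**Figure D2:**
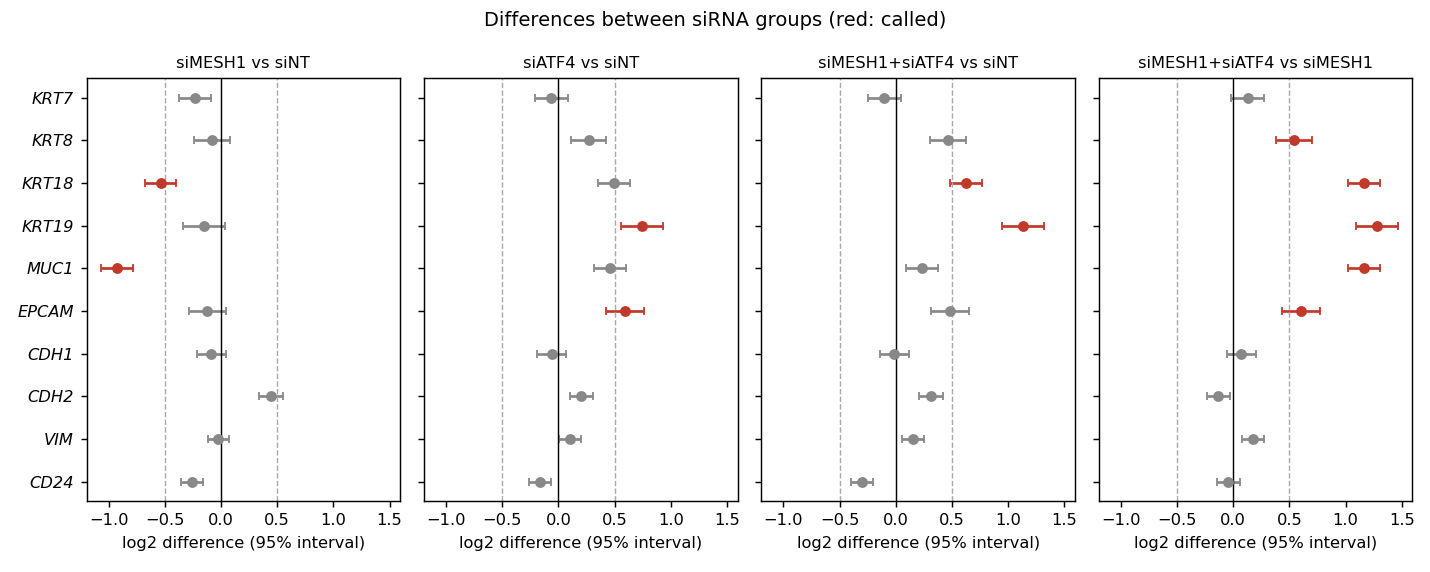
Log2 differences between siRNA groups with 95% intervals (x axis) for the 10 genes (rows) in 4 comparisons; red points were called and dashed lines mark the fold minimum of 0.5. In siMESH1+siATF4 vs siMESH1 the red points are KRT8, KRT18, KRT19, MUC1 and EPCAM, from 0.54 to 1.28.

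MUC1, which covers the apical surface and is known in diagnosis as epithelial membrane antigen, had the largest difference between the single siRNAs. Its values were 0.05, 0.04 and -0.09 in siNT, -0.87, -1.04 and -0.88 in siMESH1, 0.43, 0.54 and 0.42 in siATF4, and 0.28, 0.15 and 0.28 in siMESH1+siATF4. None of the 4 groups overlapped another. MUC1 fell 1.90-fold in siMESH1 (-0.93 ± 0.07, SE, adjusted p = 2.27e-07) and was 2.62-fold lower there than in siATF4 (-1.39 ± 0.07, adjusted p = 1.07e-08). It rose 2.24-fold in siMESH1+siATF4 against siMESH1 (1.16 ± 0.07, adjusted p = 8.21e-08). In siATF4 the value was 0.46 (adjusted p = 1.52e-04), and in siMESH1+siATF4 0.24 (adjusted p = 0.012), both under the fold minimum. Under housekeeping centring MUC1 was still called lower in siMESH1 (-0.60) and became called in siATF4 (0.61).

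The 3 probe sets of MUC1 agreed in direction and differed in size. In siMESH1 vs siNT they stood at -1.16 (207847_s_at), -1.04 (213693_s_at) and -0.58 (211695_x_at), and all 3 were called, against 8.95% of all 19064 probe sets. In siMESH1+siATF4 vs siMESH1 they stood at 1.50, 1.25 and 0.74, again all called, against 6.69% of probe sets. In siATF4 vs siNT only 207847_s_at was called (0.68, against 0.44 and 0.27), where 6.89% of probe sets were. The least responsive, 211695_x_at, also had the widest spread, with siMESH1 arrays at -0.47, -1.03 and -0.24, whereas 213693_s_at had -1.0, -1.01 and -1.12. Probe sets with these endings can read several transcripts, and which MUC1 transcript each one reads was not analysed here.

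Of 14 other measured mucins limma called 0 in each comparison, between 1 and 4 had an unadjusted p under 0.05 per comparison, and the methods' t-test called 0. Their values ran from -0.39 (PODXL, podocalyxin, SE 0.0887, named after its value was seen) to 0.31 in siMESH1 vs siNT and from -0.32 to 0.05 in siMESH1+siATF4 vs siMESH1. Housekeeping centring called 1 higher in siMESH1 vs siNT and 1 lower in the interaction. Which of these mucins lay above background is likewise unknown.

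EPCAM, an adhesion protein whose cleaved tail can signal in the nucleus, was higher in both groups that received the ATF4 pool. The siNT arrays stood at 0.12, -0.03 and -0.09 and the siMESH1 arrays at -0.16, -0.16 and -0.04, which overlapped. The siATF4 arrays stood at 0.74, 0.49 and 0.56 and the siMESH1+siATF4 arrays at 0.59, 0.44 and 0.41, all above every siNT array and overlapping each other. With siATF4 alone EPCAM rose 1.51-fold over siNT (0.60 ± 0.08, SE, adjusted p = 7.45e-05). Adding siATF4 to siMESH1 raised it 1.52-fold (0.60 ± 0.08, adjusted p = 7.40e-05), a call that was lost under housekeeping centring (0.49). In siMESH1+siATF4 it was 0.48 above siNT (adjusted p = 2.86e-04), under the fold minimum but past it without siNT replicate 1 (0.54), without siMESH1+siATF4 replicate 2 (0.50) or 3 (0.52), and under housekeeping centring (0.70). With 1 probe set, its value has no second reading on the array.

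CD24, often used with EPCAM and CD44 to sort tumour cells, was slightly lower in every silenced group. It stood at -0.26 in siMESH1 (SD 0.0249), -0.16 in siATF4 (SD 0.0434) and -0.30 in siMESH1+siATF4 (SD 0.0056), with n = 3 each, and no silenced array overlapped siNT. The adjusted p was 6.26e-04, 0.0172 and 1.69e-04 in that order, and each value was under the fold minimum. All 6 probe sets lay below siNT in siMESH1, from -0.35 to -0.16, the smallest with limma's adjusted p = 0.101. Of these, 3 end in _x_at and 3 in _s_at, so they may read shared sequences and are not 6 separate readings. Housekeeping centring left 0.07, -0.01 and -0.08, so the sign in siMESH1 turned with the scaling. Among 12 measured partners of CD24 and EPCAM, CD44, the hyaluronan receptor, fell in siMESH1 (-0.63 ± 0.04, SE, adjusted p = 1.41e-07), with its 8 probe sets between -1.14 and -0.03. CD9, a tetraspanin that binds EPCAM complexes, also fell there (-0.55 ± 0.07, adjusted p = 5.00e-05) and rose in siMESH1+siATF4 against siMESH1 (0.67 ± 0.07, adjusted p = 1.40e-05). Both falls were under the minimum with housekeeping centring (-0.30 for CD44 and -0.22 for CD9), and CD44 also without probe sets that may cross-hybridise (-0.48).

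**Figure D3:**
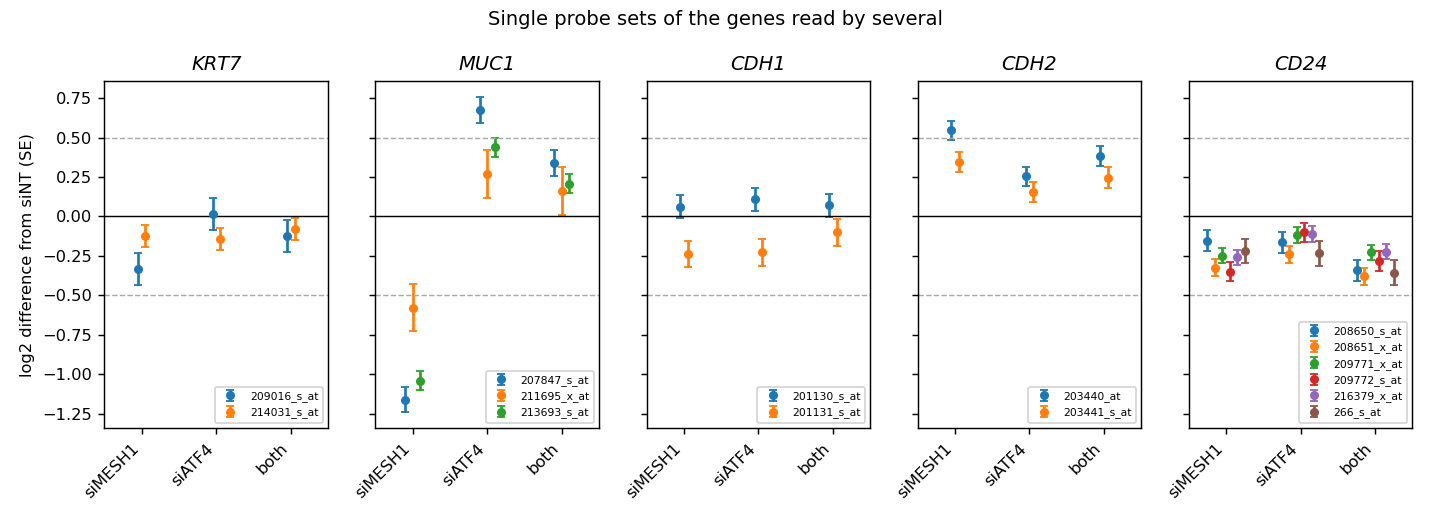
Log2 difference from siNT with SE (y axis) of each probe set of the 5 genes that have several, in siMESH1, siATF4 and siMESH1+siATF4 (both) on the x axis; dashed lines mark the fold minimum of 0.5. The 3 MUC1 probe sets lie between -1.16 and -0.58 in siMESH1, and those of CDH1 lie on both sides of 0 (0.06 and -0.24).

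CDH1, which encodes E-cadherin of the adherens junction, was not called in any comparison. Its arrays lay between -0.06 and 0.08 in siNT, between -0.18 and -0.01 in siMESH1, between -0.11 and -0.03 in siATF4 and between -0.08 and 0.05 in siMESH1+siATF4, and the groups overlapped in each pair. The difference from siNT was -0.09 in siMESH1 (95% interval -0.22 to 0.04), -0.06 in siATF4 (95% interval -0.19 to 0.07) and -0.02 in siMESH1+siATF4 (95% interval -0.14 to 0.11). These intervals lie inside the fold minimum, but the 2 probe sets disagreed in sign in siMESH1, at 0.06 and -0.24 (adjusted p = 0.59 and 0.05). Without absolute signal it is unknown whether CDH1 was above background on these arrays.

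CDH2, which encodes N-cadherin, was higher in every silenced group. Its values were 0.002, -0.06 and 0.06 in siNT, 0.49, 0.41 and 0.44 in siMESH1, 0.21, 0.20 and 0.20 in siATF4, and 0.28, 0.36 and 0.30 in siMESH1+siATF4, and no group overlapped another. The difference in siMESH1 was 0.45 (SE 0.05, adjusted p = 1.28e-05), a fold of 1.36 that lay under the minimum. Of its 2 probe sets, 203440_at, the one without a cross-reading ending, was called in siMESH1 (0.55, adjusted p = 1.92e-05) and 203441_s_at was not (0.35, adjusted p = 0.00119). Housekeeping centring put CDH2 past the minimum in siMESH1 (0.78) and in siMESH1+siATF4 (0.54). The step from siMESH1 to siMESH1+siATF4 was -0.13 (95% interval -0.24 to -0.03, adjusted p = 0.0615).

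VIM, the type III filament protein of mesenchymal cells, stayed close to siNT. The siNT arrays lay between -0.01 and 0.01 and the siMESH1 arrays between -0.06 and 0.03, a difference of -0.02 (95% interval -0.12 to 0.07, adjusted p = 0.757). In siATF4 the difference was 0.10 (95% interval 0.01 to 0.20, adjusted p = 0.106) and in siMESH1+siATF4 0.16 (95% interval 0.06 to 0.25, adjusted p = 0.0147), with all arrays above siNT. Each interval ended below the fold minimum on the deposited scale. Under housekeeping centring the values were 0.31, 0.25 and 0.38. Its single probe set ends in _s_at.

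Beyond these 2 cadherins, 21 other cadherins and catenins were measured, and CTNNA2, the neuronal alpha-catenin, was called higher in siATF4 (0.53 ± 0.06, SE, adjusted p = 1.64e-05). In the other 6 comparisons limma called 0, while between 3 and 6 had an unadjusted p under 0.05, and the methods' t-test also called 0 wherever it could be made. Housekeeping centring called 3 of them higher in siMESH1 vs siNT, 1 in siATF4 vs siNT, 2 in siMESH1+siATF4 vs siNT and 1 in siMESH1 vs siATF4, and 3 lower in the interaction.

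The interaction compared the siMESH1 difference in the presence of siATF4 with that in the siNT background. A positive value means a difference that was higher, or less negative, with siATF4. For MUC1 that difference was -0.23 with siATF4 and -0.93 without it. Of the 10 genes, 3 were called higher, against 3.46% of all genes, and 0 lower, against 0.853%. They were MUC1 (0.70 ± 0.09, SE, adjusted p = 2.76e-04), KRT18 (0.67 ± 0.09, adjusted p = 3.74e-04) and KRT19 (0.53 ± 0.12, adjusted p = 0.0132). For MUC1 the single differences summed to -0.47 and the group with both siRNAs stood at 0.24. For KRT18 the sum was -0.04 against 0.63, and for KRT19 0.60 against 1.13. Among the probe sets of MUC1, 2 of 3 were called (0.82 and 0.81, with 211695_x_at at 0.47, adjusted p = 0.204), where 4.48% of probe sets were.

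EPCAM was close to additive, with a sum of 0.47 against 0.48 and an interaction of 0.01 (95% interval -0.23 to 0.24, adjusted p = 0.98). CDH2 went the other way, with a sum of 0.65 against 0.31 and an interaction of -0.34 (SE 0.07, adjusted p = 0.00675), under the fold minimum. The calls of KRT18 (0.41), KRT19 (0.28) and MUC1 (0.45) were lost and CDH2 (-0.59) was called when arrays were centred on housekeeping genes, which moves the interaction of every gene down by the same amount. KRT19 also lost its call without siNT replicate 2 (0.43), siATF4 replicate 1 (0.49) or siMESH1+siATF4 replicate 3 (0.49).

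**Figure D4:**
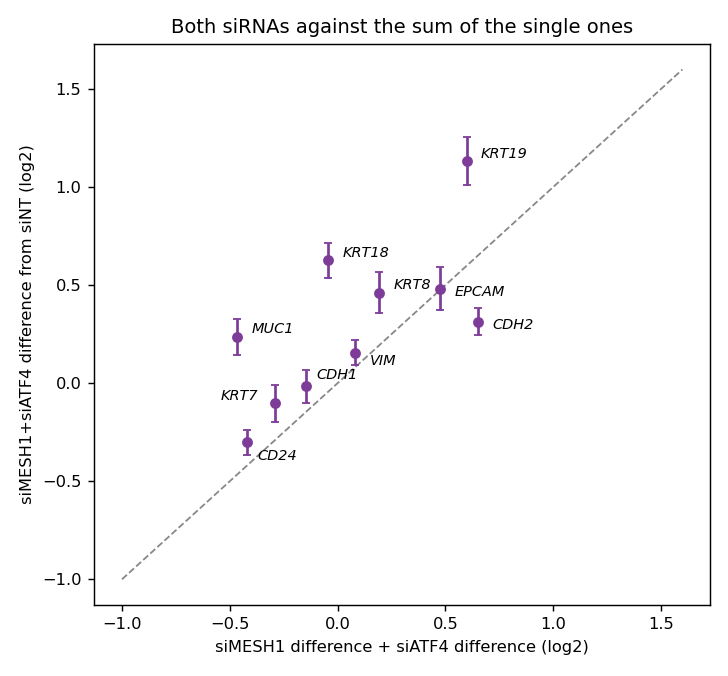
Log2 difference of siMESH1+siATF4 from siNT with SE (y axis) against the sum of the siMESH1 and siATF4 differences (x axis) for the 10 genes; on the dashed line the differences add up. MUC1, KRT18 and KRT19 lie above the line by 0.70, 0.67 and 0.53, EPCAM lies on it and CDH2 lies 0.34 below it.

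Of 23 other measured genes of the epithelial programme, 3 were called lower in siMESH1 (5.37% of all genes) and 0 higher (2.82%). In siATF4 1 was called higher (2.49% of all genes), and in siMESH1+siATF4 vs siMESH1 3 were (3.42%). Such small counts were not tested against these shares. MAPK13, a stress kinase of epithelia, fell in siMESH1 (-1.02 ± 0.06, SE, adjusted p = 5.38e-08), as did C1orf116 (-0.86 ± 0.06, adjusted p = 1.61e-07) and CD9. C1orf116 (0.73), CD9 (0.67) and SPINT2, an inhibitor of serine proteases (0.59), rose in siMESH1+siATF4 against siMESH1, while MAPK13 was still 0.57 below siNT there (a difference of -0.57, adjusted p = 9.06e-06). Housekeeping centring took SPINT2 (0.48) and this value of MAPK13 (-0.35) under the minimum. ELF3, an epithelial ETS factor, took another course and rose in siATF4 (0.54 ± 0.06, adjusted p = 2.67e-05) and in siMESH1+siATF4 (0.81 ± 0.06, adjusted p = 4.39e-07), with 0.45 in siMESH1. Its call in siATF4 was lost without siNT replicate 3 (0.48) and without probe sets that may cross-hybridise (0.49). Under housekeeping centring 2 of the 23 were called higher and 2 lower in siMESH1, where 23.5% of all genes were called in either direction. The median of the list, 0.02 in siMESH1 and 0.04 in siMESH1+siATF4 vs siMESH1, stood near the medians of all genes (0.03 and -0.01).

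Tight junction and polarity genes, 22 of them measured, gave few calls. CLDN4, a claudin of distal nephron and many epithelia, rose in siATF4 (0.57 ± 0.06, SE, adjusted p = 1.19e-05) and in siMESH1+siATF4 (0.77 ± 0.06, adjusted p = 4.46e-07). In siMESH1 it was called at 0.501, a call lost without siNT replicate 1 (0.47) or 3 (0.49), without siMESH1 replicate 1 (0.45) and under array median centring (0.48). CLDN1 was called in siMESH1+siATF4 (0.52), and lost without siNT replicate 3 (0.46) and without siMESH1+siATF4 replicate 1 (0.49) or 3 (0.47). PARD3, a polarity scaffold, was lower in siMESH1+siATF4 than in siMESH1 (-0.55 ± 0.06, adjusted p = 2.81e-05), a call lost without siMESH1 replicate 3 (-0.49), and TJP1, which encodes ZO-1, was higher in siMESH1 than in siATF4 (0.57 ± 0.05, adjusted p = 3.98e-06). Housekeeping centring raised the number called higher in siMESH1 from 1 to 8, and that of all genes from 337 to 2526.

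Of 11 measured EMT transcription factors, SNAI2, which encodes the E-box repressor Slug, was called higher in siMESH1 (0.75 ± 0.07, SE, adjusted p = 2.94e-06). Its siMESH1 arrays stood at 0.79, 0.80 and 0.65, its siATF4 arrays at 0.52, 0.45 and 0.52, and its siMESH1+siATF4 arrays at 0.55, 0.53 and 0.75, all above the siNT arrays, which reached 0.07. In siATF4 its difference was 0.4957, just under the fold minimum (adjusted p = 1.36e-04), in siMESH1+siATF4 it was called at 0.61, and its interaction was -0.63 (SE 0.10, adjusted p = 9.44e-04). KLF8 was lower in siMESH1+siATF4 than in siMESH1 (-0.53 ± 0.09, adjusted p = 8.78e-04), a call lost without siMESH1 replicate 1 (-0.45) or siMESH1+siATF4 replicate 1 (-0.42). ZEB2 was higher in siMESH1 than in siATF4 (0.56 ± 0.12, adjusted p = 0.00252), and lost that call without siATF4 replicate 3 (0.46). The remaining factors were not called in siMESH1 vs siNT on the deposited scale, and housekeeping centring raised the number called there to 3.

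Of 24 measured mesenchymal markers other than CDH2 and VIM, 1 was called higher (2.82% of all genes) and 1 lower (5.37%) in siMESH1. In siMESH1+siATF4 vs siNT 3 were called higher (4.4% of all genes) and 1 lower (5.25%). FN1, fibronectin, rose in siMESH1 (0.72 ± 0.05, SE, adjusted p = 3.06e-07), siATF4 (0.75 ± 0.05, adjusted p = 3.14e-07) and siMESH1+siATF4 (1.04 ± 0.05, adjusted p = 7.57e-09). Without probe sets that may cross-hybridise the FN1 values were 0.42, 0.11 and 0.35, so all 3 calls rest on probe sets shared between transcripts. TPM1, a tropomyosin, was called lower in siMESH1 (-0.87 ± 0.05, adjusted p = 5.67e-08), but its 4 probe sets ran from -1.36 to 0.26 and the sign turned without those that may cross-hybridise (0.26, adjusted p = 0.012). The fibrillar genes COL5A1 (0.63 ± 0.06, adjusted p = 3.45e-06) and FBN1 (0.62 ± 0.09, adjusted p = 1.41e-04) were called higher in siMESH1+siATF4. Their probe sets differed in size there, from 0.36 to 0.84 over 3 for COL5A1 and at 0.27 and 0.98 for the 2 of FBN1.

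Among 15 other intermediate filament proteins, 1 was called higher (2.82% of all genes) and 3 lower (5.37%) in siMESH1 vs siNT. LMNB1, a B-type lamin of the nuclear envelope, fell in siMESH1 (-1.48 ± 0.07, SE, adjusted p = 4.59e-09), siATF4 (-1.12 ± 0.07, adjusted p = 9.10e-08) and siMESH1+siATF4 (-1.66 ± 0.07, adjusted p = 1.29e-09). LMNB2, the other B-type lamin, fell in siMESH1 (-0.75 ± 0.08, adjusted p = 1.21e-05), siATF4 (-0.51) and siMESH1+siATF4 (-0.59), 3 calls that were lost under housekeeping centring (-0.42, -0.37 and -0.37) and, for siATF4, without siATF4 replicate 1 (-0.45) or 2 (-0.48). NEFM, a neurofilament subunit, fell in siMESH1 (-1.20 ± 0.16, adjusted p = 6.83e-05) and siMESH1+siATF4 (-1.45 ± 0.16, adjusted p = 1.08e-05), with -0.13 in siATF4. SYNC, a muscle filament protein, was called higher in siMESH1 (0.52) and siMESH1+siATF4 (0.51), both under the minimum with array median centring (0.49 in each) and without replicate 3 of the group (0.48 and 0.46). Of 12 plakins and keratin partners, PPL, which tethers keratins to the cell cortex, rose in siMESH1 (1.00 ± 0.15, adjusted p = 1.60e-04) and siMESH1+siATF4 (1.05 ± 0.15, adjusted p = 9.53e-05), with siNT arrays from -0.37 to 0.24. KLHL24, an adaptor for keratin degradation, rose in siMESH1 (0.72 ± 0.08, adjusted p = 2.33e-05), with 3 probe sets between 0.25 and 1.05.

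**Figure D5:**
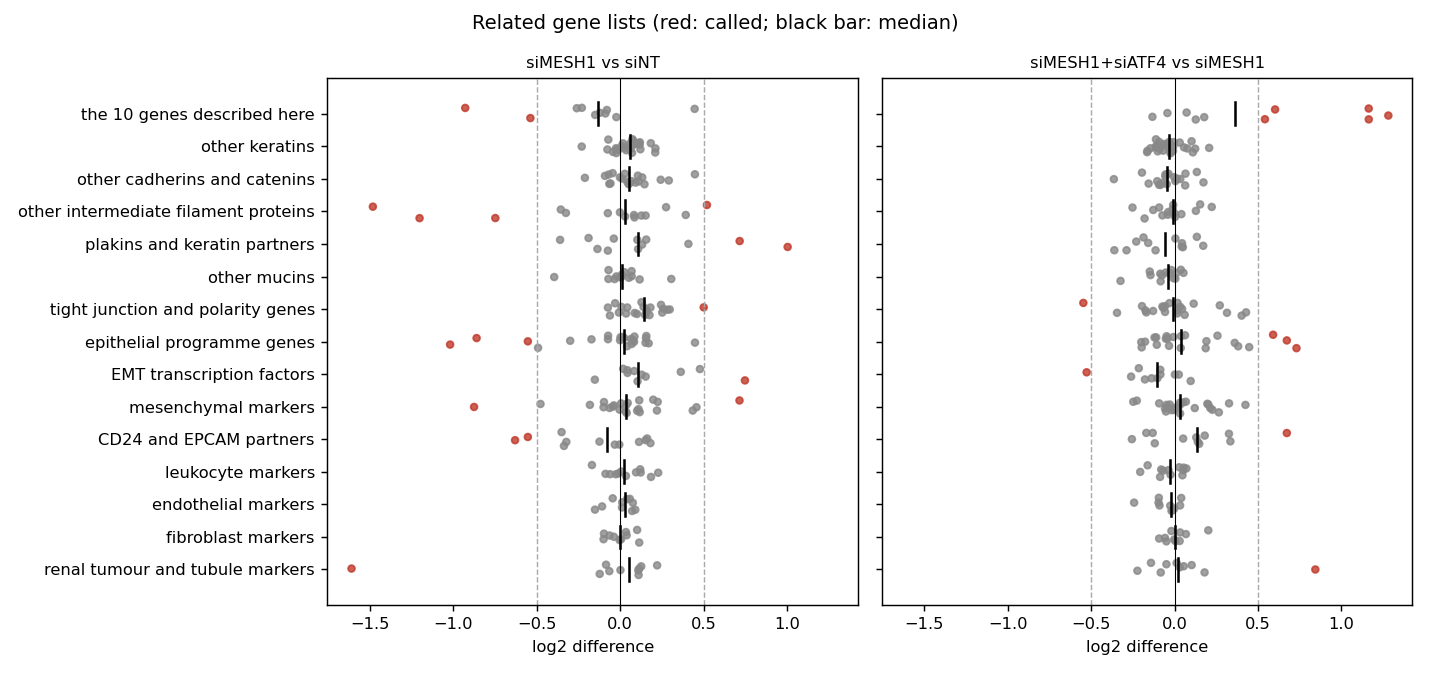
Log2 differences (x axis) of every measured gene of each list (rows) in siMESH1 vs siNT and in siMESH1+siATF4 vs siMESH1; red points were called, black bars are list medians and dashed lines mark the fold minimum of 0.5. On the right the 10 genes hold 5 red points, and the lists of other keratins and other mucins hold 0 in both panels.

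The genes whose values followed those of the called genes most closely over the 12 arrays, out of 11963, were named by Pearson correlation. The 12 arrays share 4 groups, so each coefficient describes mainly the group means. For MUC1 they were URGCP (r = 0.99), CHFR (r = 0.99) and EHD4 (r = 0.99), and for KRT18 they were PLAAT3 (r = 0.99), THBD (r = 0.99) and OLFML3 (r = 0.99). For KRT19 they were FSTL1 (r = 0.98), MICALL1 (r = 0.98) and GPRC5A (r = 0.98), for KRT8 they were IRF1 (r = 0.98), PGD (r = 0.98) and RTL8C (r = 0.97), and for EPCAM they were ROR1 (r = 0.98), PBLD (r = 0.97) and CFLAR (r = 0.97). URGCP moved less far than MUC1, at -0.65 in siMESH1 vs siNT and 0.78 in siMESH1+siATF4 vs siMESH1. Among the 10 genes themselves KRT8 and KRT19 were closest (r = 0.96), followed by KRT18 with MUC1 (r = 0.93) and KRT18 with KRT19 (r = 0.92). KRT19 with VIM came next (r = 0.91), and VIM also ran with EPCAM (r = 0.88) and KRT18 (r = 0.88). The likeness was therefore not confined to the epithelial genes, although VIM moved little.

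Limma called 0 of 12 leukocyte, 0 of 10 endothelial and 0 of 10 fibroblast markers in each comparison, at most 4, 1 and 1 of them had an unadjusted p under 0.05 in a comparison, and the methods' t-test called 0. The mean over the leukocyte list ran from -0.05 to 0.09 on the siNT arrays and from 0.03 to 0.05 on the siMESH1 arrays, that of the endothelial list from -0.04 to 0.06 and from -0.02 to 0.03, and that of the fibroblast list from -0.05 to 0.09 and from -0.01 to 0.02. Housekeeping centring called 2 leukocyte markers higher in siMESH1. Without levels, it is unknown which of these markers lie at background. Of 10 renal tumour and tubule markers CA12, a carbonic anhydrase induced in renal carcinoma, was called, falling in siMESH1 (-1.61 ± 0.05, SE, adjusted p = 6.93e-10) and siMESH1+siATF4 (-0.76 ± 0.05, adjusted p = 2.28e-07). Fewer cells of a kind in a culture and less RNA per cell cannot be told apart on such arrays.

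The control probe sets give measures of RNA quality and of hybridisation. Set against siNT, the 3′ minus 5′ difference of ACTB stood at -0.11 in the siMESH1 group, -0.29 in the siATF4 group and -0.30 with both siRNAs (exact two-sided permutation p = 0.4, 0.1 and 0.1, adjusted p = 0.514, 0.3 and 0.3, where 0.1 is the smallest p that 3 against 3 arrays allow). For GAPDH these values were 0.08, -0.09 and -0.02 (exact permutation p = 0.4, 0.2 and 0.8). The mean of 18 hybridisation spike-in probe sets stood at -0.02, 0.25 and 0.07 (exact permutation p = 0.6, 0.1 and 0.4), so that it was highest in siATF4. In siATF4 and with both siRNAs KRT19 stood at 0.75 and 1.13 over siNT, and EPCAM at 0.60 and 0.48. The part of RNA quality or of hybridisation in the values of the 10 genes was not tested.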

How the data were processed

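The study hybridised RNA from 12 RCC4 cultures to Affymetrix Human Genome U133 arrays, 3 in each of 4 siRNA groups taken from the sample labels. By the methods, the authors summarised probe sets with RMA in Expression Console (versions not given in the sources used here) and then subtracted the siNT mean, so the deposited values are log2 differences from siNT. No absolute signal was analysed here, so no filter on dim probe sets could be set, and the number of arrays limits the precision. No column of the authors' own comparisons was used.

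Of 22277 probe sets, 62 were controls, 19064 carried 1 gene symbol in the platform annotation, 1043 several and 2108 none. Symbols were updated by Entrez identifier (19052 matched), and probe sets of a gene were averaged, which gave 11963 genes. The group means of all 12 arrays were fitted with limma 3.58.1 in R 4.3.3 (8 residual and 4.32 prior degrees of freedom, Benjamini-Hochberg adjustment within each of 7 comparisons), without a replicate block. Every p-value in the text whose sentence names no other test is limma's, with 3 arrays per group. The labels call the replicates biological. The 3 comparisons with siNT share its arrays, so their values stand side by side and were not correlated. Scan dates and slides were not analysed here. The fit was tested on simulated data. Named genes of the related lists were the genes called, at most 4 per list and comparison. The 3 genes most like a called gene were ranked by Pearson's r. The alternatives were 2 other centrings, 1 probe set per gene, probe sets without a cross-hybridising suffix, no fold minimum, a robust prior, a fit on the compared arrays alone, a replicate block, the methods' t-test with and without adjustment, and leaving out each of the 12 arrays. The 10 genes, the related lists and the tests were chosen with earlier results of these data known. Promoter sequences are from RefSeq (GRCh38.p14). Figures were drawn with matplotlib 3.10.9.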

Additional observations from a re-analysis of the deposited data

Results flagged for a closer look

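In 15 of the genes named here the effect of siMESH1 differed between the siNT background and the siATF4 background by the interaction test of limma. Of all 11963 genes 516 were called there (4.31%). Genes of the related lists were mostly named because they were called, so the number 15 cannot be set against that share. Among the genes described here the difference of effects was 0.70 for MUC1, 0.67 for KRT18 and 0.53 for KRT19. Among the related lists it was 0.94 for LMNB1, 0.89 for CA12, 0.84 for CD9, 0.67 for LMNB2, 0.64 for MAPK13, 0.59 for C1orf116 and -0.63 for SNAI2. Among the genes whose pattern was most like that of KRT18 or MUC1 it was 0.88 for THBD, 0.66 for OLFML3 and 0.63 for CHFR. These 3 were picked by their likeness over the same 12 arrays, so a shared interaction follows largely from that choice. Among the housekeeping genes it was 0.80 for TFRC and 0.66 for HPRT1. Positive values mean that the siMESH1 difference was higher, or less negative, where ATF4 was silenced too. For CA12 it was -1.61 against siNT and -0.72 against siATF4, a smaller fall. For KRT19 it was -0.15 and 0.38, with neither called. With arrays centred on housekeeping genes, among the first 10 genes given here the calls of MUC1 (0.45), KRT18 (0.41), KRT19 (0.28), LMNB2 (0.41), MAPK13 (0.39) and C1orf116 (0.33) were lost. Groups of 3 arrays were too small for a search for outlying samples.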

How the results depend on the processing

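Of the 70 values of the 10 genes, none that was called changed its sign under any of 22 alternatives; sign changes among values that were not called were counted apart, 22 of them under housekeeping centring. Over all alternatives, called values kept their call 363 times and lost it 11 times, and uncalled values stayed so 1042 times and gained a call 38 times.

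The number of genes called moved by over 1.5 times under housekeeping centring to 2817 (siMESH1 vs siNT), 1877 (siMESH1+siATF4 vs siNT) and 1457 (interaction). Without a fold minimum it was 4019 for siMESH1, 3421 for siATF4 and 4254 for both siRNAs against siNT, 3348 in siMESH1+siATF4 vs siMESH1, 1403 in siMESH1+siATF4 vs siATF4, 4004 in siMESH1 vs siATF4 and 1424 in the interaction. The methods' t-test after Benjamini-Hochberg adjustment gave 122 in siMESH1+siATF4 vs siATF4. Of the 10 genes, housekeeping centring called 4 in siATF4 vs siNT (8.4% of all genes), 5 in siMESH1+siATF4 vs siNT (15.7%), 3 in siMESH1+siATF4 vs siMESH1 (6.78%) and 1 in the interaction (12.2%). No fold minimum gave 5, 7 and 8 of them against siNT for siMESH1, siATF4 and both (33.6%, 28.6% and 35.6% of all genes). It gave 7 in siMESH1 vs siATF4 (33.5%) and 2 in siMESH1+siATF4 vs siATF4 (11.7%). Leaving out 1 array gave 1 to 2 of them in siMESH1 vs siNT (1 without siNT replicate 2, where 8.38% of all genes were called). In siMESH1+siATF4 vs siNT it gave 2 to 4 (4 without siMESH1+siATF4 replicate 2, where 9.85% of all genes were called). Without cross-hybridising probe sets only KRT19 and CDH2 could be measured, so the 10 genes were not counted.

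Same-numbered arrays did not visibly deviate together (correlations from -0.216 to 0.108 over 18 pairs, and 3 of 12 arrays closest to their own number). Differently numbered arrays ran from -0.19 to 0.287 over 36 pairs. The labels do not say whether equal numbers share a day or batch, and this check cannot settle it. With a replicate block the genes called were 978 (980 without it) in siMESH1 vs siNT, 781 (780) in siATF4 vs siNT and 517 (516) in the interaction, with 1154, 730, 195 and 1036 in the other comparisons as without it, and no call of the 10 genes changed. Which genes lay near background could not be judged without absolute signal.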
